A study of Rattus norvegicus with 10 samples.

Results

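The resting expression profile of cultured neonatal rat microglia was read from the 5 unstimulated control arrays of a series of 10. The other arrays came from cultures exposed to interferon gamma and were not used here. Per the labels, microglia were grown from neonatal rat brain, with 1 brain per flask, in Dulbecco's modified Eagle's medium with 15% fetal calf serum. The medium was changed on days 7 and 11 and the cells were plated at 100000 per dish on day 15. The control dishes then received fresh medium alone. The 5 arrays stand for 5 independent cultures, numbered 1, 2, 3, 5 and 6, and values below are listed in that order. Rat strain, sex and age in days are not given in the sources used here. Each culture was measured on 1 array, so a difference between cultures and a difference between arrays cannot be told apart. No control was set against another group, so no test was made and every value is a description with n = 5.

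Microglia are the resident macrophages of the brain and descend from myeloid precursors of the yolk sac. They take up debris, dying cells and lipid by phagocytosis and break them down in lysosomes with cathepsins and other acid hydrolases. They also supply complement, apolipoprotein E, cytokines and growth factors to the tissue around them. Grown in serum, microglia are known to lose part of the surface receptor profile that they carry in the brain.

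A level is the quantile-normalised value of log2(signal + 16), on which a signal of 0 lies at 4 and 1 unit is a 2-fold step at high signal. A gene is represented by its brightest probe set, which gave 4736 genes with a median level of 5.08. Genes at 7 or more in all 5 cultures are called bright, and genes under 5 in all 5 cultures are called at the floor. These levels stand for signals of 112 and 16 after normalisation, and not for the deposited signal on each array. With no scaling between arrays, 85 genes were at 7 or more in all 5 cultures. Bright genes numbered 176 (3.72%), genes at the floor 903 (19.1%), and 3657 (77.2%) lay between. The signal of a probe set depends on its own probes as well as on the RNA, so the order of genes below is an order of signals and not of transcript numbers, and a low signal does not show that a gene was silent. In these bulk samples fewer cells of a type and less RNA per cell cannot be told apart.

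Among the marker genes that go with the label, Apoe, Lyz2 and Aif1 gave high signals and Csf1r and Cx3cr1 did not. Apoe encodes the lipid carrier apolipoprotein E, and its levels were 12.59, 12.75, 12.75, 12.75 and 12.59. Lyz2, the lysozyme gene of myeloid cells, was at 10.81, 10.45, 9.97, 10.71 and 10.59, lowest in culture 3. Aif1 encodes the actin-binding protein Iba1 by which microglia are commonly stained, and it was at 7.92, 7.75, 6.82, 7.75 and 7.81. Culture 3 lay below the other 4 cultures, and in a second Aif1 probe set it was lowest too (7.71, 7.52, 6.84, 7.72 and 8.20). Aif1 had 3 probe sets, and the values of the last are not given here. Csf1r, the receptor through which microglia receive their survival signal, was at 4.56, 4.17, 5.42, 4.90 and 4.49. Cx3cr1, the receptor for the neuronal chemokine fractalkine, was at 5.53, 5.64, 4.22, 5.07 and 5.28. Neither receptor gene passed 5.64 in any culture, and Csf1r was highest in culture 3, where Cx3cr1 was lowest.

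The promoters of 3 bright markers and of Cx3cr1 show what the starts of these genes look like around a known myeloid element. GAGGAA is the core of the sequence bound by PU.1, the transcription factor that directs macrophage development. Each sequence below runs from 250 bases before to 50 bases after the annotated start in the RefSeq promoter table for GRCr8, 5′ to 3′ on the gene's strand, and capitals mark GAGGAA or its complement TTCCTC. Lyz2 lies on the minus strand (chr7:54797962-54798261), Ctss on the plus strand (chr2:185775146-185775445), C1qb on the minus strand (chr5:154407778-154408077) and Cx3cr1 on the minus strand (chr8:128677017-128677316).
Lyz2: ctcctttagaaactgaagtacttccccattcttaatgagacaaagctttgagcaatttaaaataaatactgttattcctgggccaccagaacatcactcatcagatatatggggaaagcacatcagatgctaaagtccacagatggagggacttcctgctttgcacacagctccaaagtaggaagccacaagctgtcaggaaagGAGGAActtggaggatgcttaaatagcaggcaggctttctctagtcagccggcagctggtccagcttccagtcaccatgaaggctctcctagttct
Ctss: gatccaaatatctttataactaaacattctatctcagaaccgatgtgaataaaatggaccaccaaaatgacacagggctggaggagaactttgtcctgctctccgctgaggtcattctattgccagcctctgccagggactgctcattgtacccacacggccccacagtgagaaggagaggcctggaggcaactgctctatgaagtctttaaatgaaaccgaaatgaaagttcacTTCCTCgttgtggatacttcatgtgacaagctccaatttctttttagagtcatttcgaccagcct
C1qb: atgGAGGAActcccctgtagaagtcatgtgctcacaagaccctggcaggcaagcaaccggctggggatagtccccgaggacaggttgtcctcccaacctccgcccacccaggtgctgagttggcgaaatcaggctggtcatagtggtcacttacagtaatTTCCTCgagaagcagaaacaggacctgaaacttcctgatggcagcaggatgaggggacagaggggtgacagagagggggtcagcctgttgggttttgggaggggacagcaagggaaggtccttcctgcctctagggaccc
Cx3cr1: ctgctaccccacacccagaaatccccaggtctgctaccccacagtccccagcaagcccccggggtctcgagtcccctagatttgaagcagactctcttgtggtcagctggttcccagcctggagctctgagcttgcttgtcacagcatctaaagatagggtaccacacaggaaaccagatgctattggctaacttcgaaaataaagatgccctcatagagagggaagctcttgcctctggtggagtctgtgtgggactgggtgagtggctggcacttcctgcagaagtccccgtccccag

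In Lyz2 the match began 46 bases upstream of the start, in Ctss 15 bases upstream on the opposite strand, and in C1qb 247 and 90 bases upstream, the second on the opposite strand. The Cx3cr1 window held no match, which says only that these letters are not in this window. The motif was present on either strand in 27.6% of the 33469 promoters listed. Of the measured microglia and macrophage markers 10 of 14 had a promoter entry, and 9 of these 10 genes held a match (9 of 12 promoters). Dim markers held it too, since Csf1r had 2 matches and Itgam 2. Among all bright genes the share was 27.4% of 157 promoters, and among genes at the floor 29.2% of 777, both close to the share of all promoters. A match is a description of the letters and not a binding site.

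Of the 29 microglia and macrophage markers listed, 14 had a probe set with a single symbol on this array. Of these, 5 were bright (Apoe, Lyz2, Ctss, C1qb and Cd14), 0 were at the floor and the median level was 7.04. Over all genes 3.72% were bright, 19.1% were at the floor and the median was 5.08. Ctss, the cathepsin that trims the invariant chain in antigen-presenting cells, was at 10.06, 9.92, 10.34, 10.34 and 10.27. C1qb, a chain of the complement recognition protein C1q, was at 8.54, 8.24, 8.55, 8.77 and 8.33, and its partner C1qc lay between 6.39 and 7.28. Cd14, the co-receptor for bacterial lipopolysaccharide, was at 8.31, 8.26, 8.40, 8.20 and 8.56. This probe set is of reduced specificity, and without such probe sets 4 markers were bright and Cd14 was not among them. The SD of Ctss, C1qb and Cd14 between cultures ran from 0.14 to 0.21. Cd53, a leukocyte tetraspanin, ran from 6.89 to 7.75. The remaining members were dim. Ptprc, the pan-leukocyte phosphatase CD45, ran from 5.20 to 5.84, P2ry12, the ADP receptor of resting microglia, from 4.73 to 6.26, and Fcgr2b, the inhibitory Fc receptor, from 4.59 to 5.88. Itgam, the complement receptor chain CD11b, lay between 4.65 and 5.18.

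**Figure D1:**
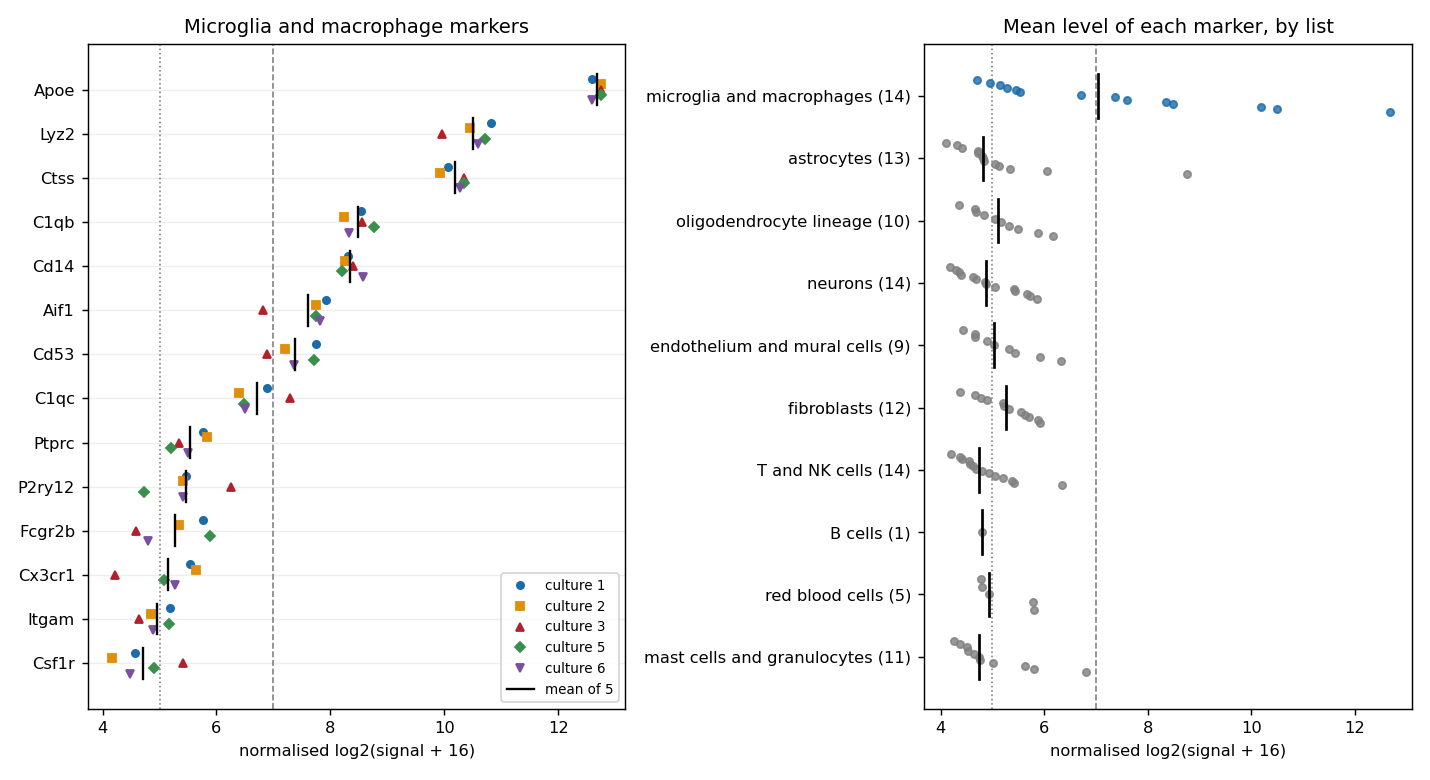
Left, levels of the 14 measured microglia and macrophage markers in each control culture, as normalised log2(signal + 16), with the mean of the 5 cultures as a black bar; right, the mean level of every measured marker of 10 cell type lists, 1 point per gene, with the list median as a black bar and the number measured in brackets. Dashed and dotted lines mark levels of 7 and 5, and the microglia list has the median of 7.04 while the 89 markers of other cell types have a median of 4.90.

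Markers of other brain and blood cell types lay near the level of all genes. Over 9 lists 89 markers were measured, of which 1 was bright, 14 were at the floor, 74 lay between and the median was 4.90, beside 3.72% bright, 19.1% at the floor and a median of 5.08 over all genes. The bright gene was Glul, the glutamine synthetase of astrocytes, which other cells express too, at 8.47, 8.61, 9.22, 8.79 and 8.76. Its 3 other probe sets ranged from 6.65 to 8.31. The astrocyte glutamate transporter gene Slc1a3 lay between 5.54 and 6.43, the water channel gene Aqp4 between 4.08 and 5.17, S100b between 4.54 and 5.39, and the connexin gene Gja1 was at the floor. No value is given for Gfap, which is not listed with a probe set in the annotation used here. The part of other cells in the profile was not tested.

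In the oligodendrocyte lineage the 10 measured markers had a median of 5.10, with Mag, a myelin adhesion protein, highest (5.75 to 6.49) and Mbp between 4.20 and 5.67. The 14 neuronal markers had a median of 4.87. At the floor were 4 (28.6%, beside 19.1% of all genes), among them the synaptic vesicle sensor gene Syt1. Snap25, a synaptic fusion protein, was the highest of the 14, at 6.49 in culture 6 and 5.59 to 5.81 in the other cultures. The 12 fibroblast markers had a median of 5.27, and the collagen genes Col1a1, Col1a2 and Col3a1 lay between 5.41 and 6.22 in every culture. Endothelial and mural markers had a median of 5.03 over 9 genes. Kdr, the receptor for vascular endothelial growth factor, stood out there at 7.00 in culture 1 against 4.16 to 4.95 in the other 4. T and natural killer cell markers had a median of 4.75 over 14 genes. The kinase gene Lck was highest (5.80 to 6.66), while Cd3d, a chain of the T cell receptor complex, was between 4.36 and 4.44. Among 5 red blood cell markers the heme synthesis gene Alas2 (5.42 to 6.25) and the anion exchanger gene Slc4a1 (5.10 to 6.18) were highest, and the beta globin gene Hbb was lowest (4.43 to 5.19). The highest mast cell marker was the tryptase gene Tpsb2 (6.60 to 7.23), while the granulocyte gene S100a8 ran from 4.11 to 5.48.

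The genes of highest signal included members of the actin, lysosome and ribosome lists beside Apoe, Lyz2 and genes of no list. Tmsb4x, thymosin beta 4, which binds actin monomers, had the highest probe set on each of the 5 arrays, so that quantile normalisation gave it 13.24 in every culture. Apoe followed. Psap, the precursor of the saposins that help break down sphingolipids, was at 12.23, 12.44, 12.23, 12.23 and 12.23, and its 2 other probe sets lay between 8.91 and 10.27. Actb, beta-actin, was at 12.14, 12.01, 12.01, 12.01 and 12.44. The mitochondrial gene COX1 was at 11.82, 12.23, 12.14, 12.14 and 11.93. All 20 genes of highest mean were bright, the lowest of them being Rpl27a at 9.94. Of these 20, 7 stood in the lysosome lists, 4 were ribosomal proteins and 3 belonged to the actin list. Among all 4736 genes these lists held 9 cathepsins and 18 other lysosomal genes, 44 ribosomal protein genes and 26 actin genes.

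The ranks of some of the 20 rest on a single probe set. Probe sets marked by the maker as of reduced specificity stood for 11 of the 20. Alpl, tissue-nonspecific alkaline phosphatase, was at 10.27, 11.54, 11.93, 11.82 and 11.54 by one probe set, while its other probe set lay between 4.86 and 6.20. Rps15 was at 9.83, 11.34, 11.42, 11.07 and 11.34, while its 2 others lay between 7.54 and 8.36. Both were lowest in culture 1. Oaz2, an inhibitor of polyamine synthesis, was between 11.15 and 11.54 with no other probe set. Apoe, by contrast, had a second probe set between 11.66 and 12.01 and COX1 one between 10.86 and 11.66. Over all bright genes 108 had several probe sets. A second bright probe set was present in 43 of these and none in 65, and 8 had another at the floor.

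Lysosomal genes held many bright members. Of 9 measured cathepsins 4 were bright (44.4%, beside 3.72% of all genes) and 0 were at the floor (beside 19.1%). Their median was 7.34. Ctsd, an aspartic protease, was at 10.43, 10.83, 10.63, 10.27 and 10.36, and its second probe set ran from 9.37 to 9.71. The cysteine proteases Ctsb (9.97, 10.03, 10.24, 9.86 and 9.92) and Ctsl (9.38, 9.55, 8.93, 9.19 and 9.52) were bright as well, as was Ctss above. Ctsc, which activates serine proteases, and Ctsh straddled the threshold (6.93 to 7.60 and 6.86 to 7.40), and Ctsk, the cathepsin of osteoclasts, was dim (4.26 to 5.01).

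Among 18 other lysosomal hydrolases and membrane proteins 6 were bright (33.3%, beside 3.72% of all genes) and 0 were at the floor (beside 19.1%). Their median was 6.90. Grn, progranulin, was at 10.77, 10.43, 10.43, 10.63 and 11.07. The proton pump subunit gene Atp6v0c ran from 10.03 to 10.50, the tetraspanin gene Cd63 from 10.03 to 10.39, the acid lipase gene Lipa from 8.97 to 9.52 and the membrane glycoprotein gene Lamp1 from 8.90 to 9.35. Together with Psap these are all 6. The list's median by culture ran from 6.69 in culture 3 to 7.26 in culture 1.

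**Figure D2:**
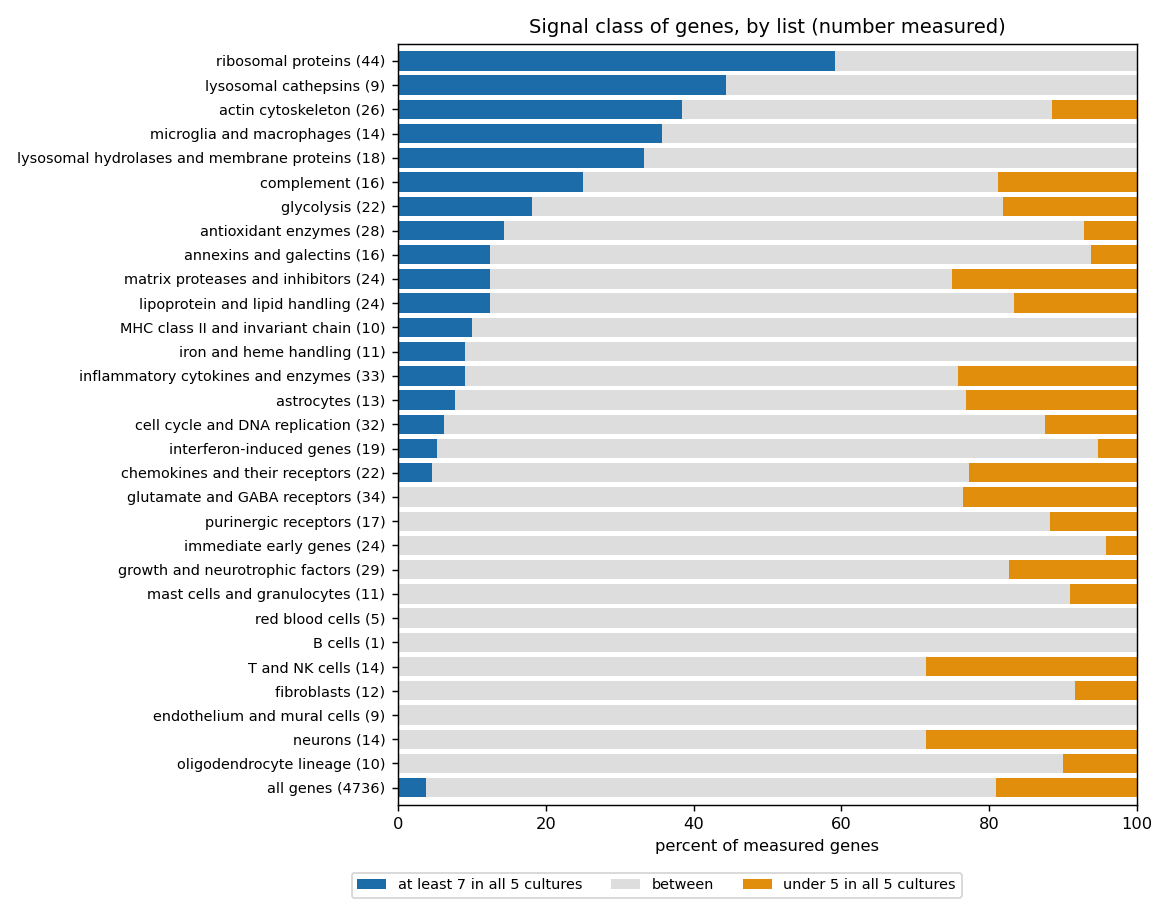
Share of measured genes in each list that were at 7 or more in all 5 control cultures (blue), under 5 in all 5 (orange) or between (grey), in percent, with the number of genes measured in brackets. Ribosomal proteins, cathepsins and actin cytoskeleton genes have the highest blue shares, and all 4736 genes together have 3.72% blue and 19.1% orange.

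Ribosomal protein genes had the highest share of bright members of any list, 26 of 44 (59.1%, beside 3.72% of all genes). Of these 44, 0 were at the floor (beside 19.1%), and the median was 8.28. The rule for this list took symbols and so also took Rps6kb1, a kinase, and some gene copies, and near-identical copies of ribosomal genes may share probes. Rps29 was highest at 11.93, 11.42, 11.66, 11.54 and 12.01, and its second probe set ran from 10.63 to 11.15. These 26 genes made up 14.8% of all bright genes, while the list held 44 of all 4736 genes. In the actin cytoskeleton list 10 of 26 were bright (38.5%, beside 3.72% of all genes). Another 3 were at the floor (11.5%, beside 19.1%), and the median was 6.66. Actg1, gamma-actin, lay between 10.36 and 10.94, the profilin gene Pfn1, which feeds actin monomers to growing filaments, between 8.84 and 8.98, and the tropomyosin gene Tpm3 between 8.64 and 9.15. The 3 at the floor were the smooth muscle gene Tagln, the calponin gene Cnn3 and the tropomyosin gene Tpm2.

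In lipid handling 3 of 24 genes were bright (12.5%, beside 3.72% of all genes). Another 4 were at the floor (16.7%, beside 19.1%), and the median was 5.58. Besides Apoe, Lpl, the lipase that releases fatty acids from lipoproteins, was at 7.92, 8.84, 8.08, 8.17 and 7.61. Fabp6, known as the ileal bile acid binding protein, was at 8.72, 9.38, 9.83, 9.80 and 9.65 by one probe set, but between 4.17 and 4.67 by its other. Scarb1, the scavenger receptor for high-density lipoprotein, ran from 6.72 to 8.06 and Plin2, the coat protein of lipid droplets, from 6.58 to 7.44. The 4 at the floor were Apoa2, Apoc4, Fabp1 and Fabp2, genes of liver and gut.

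The complement list held bright genes of recognition, of the central step and of receptors, with a median of 5.27. Of its 16 genes 3 were at the floor (18.8%, beside 19.1% of all genes) and 4 were bright (25%, beside 3.72%). Beside C1qb these were C3, the central component (8.33, 8.40, 7.48, 8.13 and 8.31), C5ar1, the receptor for the fragment C5a (7.14, 7.86, 7.85, 7.88 and 7.62), and Cr1l, a membrane regulator of C3 cleavage (7.16 to 7.97). The second C3 probe set lay between 7.57 and 7.90. C1r, the protease that pairs with C1q, was at the floor, as were the regulators C4bpb and Cd46.

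For antigen presentation by class II molecules the median was 5.27 and 0 of 10 genes were at the floor (beside 19.1% of all genes). Of the 10, 1 was bright (10%, beside 3.72%). That gene was RT1-DMa, a chain of the peptide-loading molecule DM, at 7.39, 7.09, 7.33, 7.78 and 7.76. Its partner RT1-DMb was at 7.04, 6.94, 5.14, 7.11 and 7.34, with culture 3 below the rest. RT1-DOa ran from 6.05 to 7.75 and was highest in culture 3. RT1-Ba, a chain of the class II molecule that presents the peptide, ran from 5.76 to 6.98, and RT1-Da from 4.89 to 5.75. Cd74, the invariant chain, lay between 4.34 and 5.25, and none of its 3 other probe sets passed 5.16. Of 19 interferon-induced genes 1 was bright (5.26%, beside 3.72% of all genes) and 1 at the floor (5.26%, beside 19.1%). Their median was 5.45. B2m, the chain shared by all class I molecules, was at 9.11, 8.80, 8.81, 9.17 and 9.20, the antiviral GTPase gene Mx1 ran from 4.99 to 6.66, Irf1 from 5.47 to 5.92, and Gbp2 was the gene at the floor.

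The list of inflammatory cytokines and enzymes lay close to all genes in its median, 5.14 beside 5.08. Of its 33 genes 3 were bright (9.09%, beside 3.72% of all genes) and 8 at the floor (24.2%, beside 19.1%). Il1b, interleukin 1 beta, was at 9.22, 8.78, 8.74, 8.96 and 9.25, and its 2 other probe sets lay between 6.02 and 7.63. Mif, macrophage migration inhibitory factor, ran from 7.62 to 8.17 and Hpgds, the hematopoietic prostaglandin D synthase, from 7.27 to 7.73. Il1a lay between 6.34 and 6.94 and Il18 between 5.57 and 6.94. The 8 at the floor were Il1rn, Il2, Il6, Il7, Tnf, Ifnb1, Arg1 and Alox5, none of which passed 4.94 in any culture.

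Pf4, the platelet chemokine CXCL4, was the bright member among 22 chemokine and receptor genes (4.55%, beside 3.72% of all genes). Its levels were 9.36, 9.59, 9.65, 9.18 and 9.36. The monocyte attractant gene Ccl2 was at 7.75, 8.21, 6.95, 7.41 and 7.74, and Ccl3 was at 7.83, 7.67, 6.04, 6.82 and 7.80. Ccl4, which signals through the same receptor as Ccl3, was at 6.43, 5.81, 4.62, 6.05 and 6.36. All 3 were lowest in culture 3, but Cxcl13 and Cxcr4, both of higher mean than Ccl4, were not. Cxcl13 was at 6.64, 6.56, 6.76, 7.19 and 6.55. Cxcr4 was at 5.89, 5.59, 6.65, 6.34 and 6.41, highest in culture 3. The genes at the floor were Ccl5, Cxcl3, Xcl1, Ccr2 and Ackr3 (22.7%, beside 19.1% of all genes), and the list's median was 5.20.

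Of 29 growth and neurotrophic factors 0 were bright and 5 were at the floor (17.2%), beside 3.72% and 19.1% of all genes, with a median of 4.72. The highest was Igf1, a survival factor for neurons and oligodendrocytes, at 6.96, 7.17, 7.76, 7.11 and 7.22, while its 4 other probe sets lay between 4.12 and 6.63. Hgf, hepatocyte growth factor, was at 4.97 in culture 1 and 6.48 to 6.97 elsewhere. Ntf3, second highest of the list by mean, ran from 5.56 to 7.33, while Bdnf did not pass 5.93 and Gdnf ran from 4.81 to 5.74. Of 24 matrix proteases and inhibitors (median 5.45) 6 were at the floor (25%, beside 19.1% of all genes) and 3 were bright (12.5%, beside 3.72%). These were Cst3, the cathepsin inhibitor cystatin C, Timp2, an inhibitor of metalloproteinases (8.14 to 8.55), and Spp1, osteopontin (8.25, 8.54, 7.33, 7.54 and 7.93). Cst3 was at 9.52 in culture 3 and within 8.67 to 8.70 in the other 4. Among annexins and galectins Lgals3, a galectin of phagocytes, ran from 8.67 to 9.19 and Anxa2 from 7.51 to 7.99. They were the 2 bright of 16 (12.5%, beside 3.72% of all genes). In that list 1 was at the floor (6.25%, beside 19.1%), and the median was 5.80.

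Iron and oxidant handling was led by Hmox1, heme oxygenase 1, at 8.69, 9.01, 8.86, 8.92 and 8.79. Of 11 iron and heme genes (median 5.54) 0 were at the floor (beside 19.1% of all genes). Hmox1 was the bright gene (9.09%, beside 3.72%), and its second probe set ran from 6.55 to 7.18. Of 28 antioxidant enzymes 4 were bright (14.3%, beside 3.72% of all genes) and 2 at the floor (7.14%, beside 19.1%). Their median was 5.93. Sod1, the cytosolic superoxide dismutase, was at 8.15, 8.53, 9.43, 9.21 and 9.18, the peroxiredoxin gene Prdx1 ran from 7.95 to 8.62, Gpx1 from 7.59 to 7.97 and Gpx3 from 7.02 to 7.62. In glycolysis 4 of 22 were bright (18.2%, beside 3.72% of all genes) and 4 at the floor (18.2%, beside 19.1%). The median was 5.30. The enzyme genes Pkm (8.68 to 9.05), Aldoa (8.14 to 8.60), Eno1 (8.11 to 8.55) and Pgam1 (7.15 to 8.18) were the 4 bright genes.

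In the cell cycle list 2 of 32 genes were bright (6.25%, beside 3.72% of all genes), 4 were at the floor (12.5%, beside 19.1%) and the median was 5.32. They were Ccng1, a p53 target (8.48, 8.72, 7.31, 8.33 and 8.33), and Ccne1, the cyclin of entry into S phase (7.02 to 7.43), whose other probe set lay between 4.66 and 5.67. Pcna, the clamp of DNA replication, ran from 6.03 to 7.51 and Tyms, thymidylate synthase, was at the floor. Of 24 immediate early genes, which answer within minutes to a stimulus, 0 were bright and 1 was at the floor (4.17%, beside 19.1% of all genes), with a median of 5.48. Fos was at 6.28, 6.96, 7.63, 6.95 and 7.35, and its other 2 probe sets did not pass 5.65. Egr4 ran from 6.37 to 8.07 and was highest in culture 3, and Egr1 ran from 6.10 to 6.73.

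Purinergic receptors and related genes, through which microglia sense ATP released by damaged cells, had a median of 5.25. Of the 17 measured 0 were bright and 2 at the floor (11.8%, beside 19.1% of all genes). With 3.72% of all genes bright, a count of 0 in a list of this size is near the background. P2rx2 ran from 6.33 to 7.45 by its brightest probe set, but 4 of its 5 others did not pass 5.77. P2ry6, the UDP receptor linked to phagocytosis, lay between 6.06 and 7.18, and the ion channel gene P2rx4 between 5.62 and 6.02. Of 34 glutamate and GABA receptor genes 0 were bright, 8 were at the floor (23.5%, beside 19.1% of all genes) and the median was 4.92, with Grin2c highest (5.71 to 6.42). Over all 30 lists 78 of the 176 bright genes were members of at least 1 list and 98 of none. The share of all genes in any list was not counted, so the 78 have no background beside them.

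The spread between cultures was widest for genes with a mean from 5 to 6, just above the floor. The median SD was 0.35 for the 2165 genes with a mean under 5, 0.47 for the 1742 with a mean from 5 to 6, 0.38 for the 553 from 6 to 7 and 0.20 for the 44 of at least 9. Part of the narrowing at the top is built into quantile normalisation, which leaves few possible values there. At the low end a signal of 0 lies at 4, so genes under 5 have little room to spread. The 10 genes of smallest SD among those 44 included ribosomal proteins, which were also frequent among the 44 as a whole. Rpl31 was at 9.49, 9.31, 9.29, 9.37 and 9.41 (SD 0.080) and Rpl27 at 9.05, 9.10, 9.27, 9.11 and 9.15 (SD 0.083). The others of the 10 were Tmsb4x, Apoe, Psap, Rplp0, Rps3, Ctsb, Cd63 and Oaz2. Rps15, a ribosomal protein gene also among the 44, had an SD of 0.67.

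**Figure D3:**
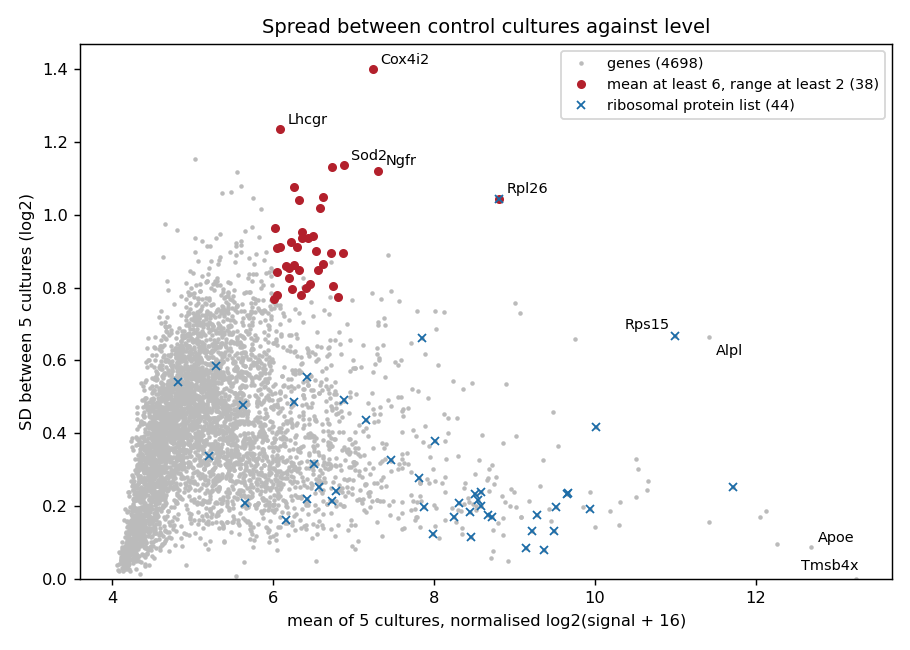
SD between the 5 control cultures (log2) against the mean level, normalised log2(signal + 16), 1 point per gene. Red points are the 38 genes with a mean of at least 6 and a range of at least 2, blue crosses the 44 genes of the ribosomal protein list, and Rpl26 is both.

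A range of at least 2 was found in 38 of the 829 genes with a mean of at least 6 (4.58%). A range of 2 is 4-fold at high signal and more than that at low signal. Of the 38, 35 had a mean under 7, and in 36 the lowest culture was under 6. Culture 3 was the farthest culture in 18 of the 38, below the others in 17 and above in 1. Among all 829 genes it also most often lay at least 1 from the median of the others, below in 73 and above in 32. The 18 can thus not be read as particular to the 38. Without culture 3 the count of genes with a range of at least 2 was 28, of which 15 were among the 38. Another probe set of the same gene existed for 22 of the 38. In 3 of these, Ngfr, Rpl26 and Tor1aip1, it too had a mean of at least 6, and for Rpl26 alone was the same culture farthest. Probe sets of reduced specificity stood for 16 of the 38, against 37.4% of the 829.

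The gene of largest spread was Cox4i2, a hypoxia-related isoform of a cytochrome c oxidase subunit, at 5.35, 8.87, 8.34, 7.04 and 6.63 (7.24 ± 1.40 SD, n = 5). No single culture stood apart there, since the 5 values spread over the whole range. Lhcgr, the receptor for luteinising hormone, was at 5.74, 4.86, 8.10, 6.27 and 5.46, and its 4 other probe sets did not pass 5.69 in any culture. Sod2, the mitochondrial superoxide dismutase, was at 8.90, 6.39, 6.37, 6.52 and 6.20 (6.88 ± 1.14 SD, n = 5), high in culture 1 and well apart from the other 4. Mcpt1l1, a mast cell protease-like gene, was at 6.97, 7.42, 5.57, 8.11 and 5.58. Ngfr, the p75 neurotrophin receptor, was at 7.93, 7.95, 7.37, 5.35 and 7.92, low in culture 5, while its other probe set ran from 6.27 to 7.71.

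Among the 20 genes with the largest spread, 7 of mixed function lay more than 1 lower in culture 3 than in any other culture, and they are described together here for that reason alone. Mdh2, mitochondrial malate dehydrogenase, was at 7.01, 6.64, 4.36, 6.59 and 6.69. Capza2, which caps actin filaments, was at 6.98, 6.96, 4.76, 7.21 and 7.21. Rpl26 was at 9.002, 9.58, 6.98, 9.38 and 9.09, while its other probe set spanned 7.78 to 8.51. Atp5f1a, a subunit of ATP synthase, was at 7.16, 6.63, 4.95, 6.90 and 6.99. Pdia6, a chaperone of the endoplasmic reticulum, Tor1aip1, a nuclear envelope protein, and Ndufb2, a subunit of respiratory complex I, were lowest in culture 3 as well, at 4.81, 4.88 and 4.66. In the other Tor1aip1 probe set the farthest value was not a low one in culture 3. The remaining genes of the 20 with the largest spread were Fn3k, LOC102549726, Slc8a1, Adap1, S100a1, Napa, Trhr and Tns1, with ranges from 2.21 to 2.92.

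**Figure D4:**
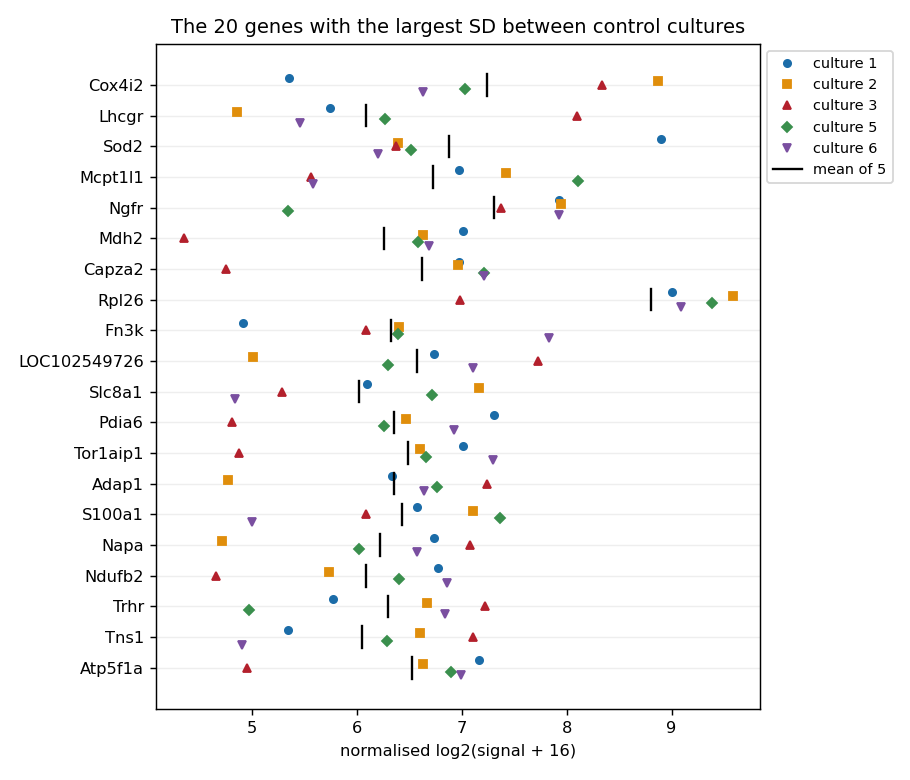
Levels, as normalised log2(signal + 16), of the 20 genes with the largest SD among those with a mean of at least 6, 1 symbol per control culture and a black bar for the mean of 5. Cox4i2 spans 5.35 to 8.87, Sod2 is high in culture 1 alone, and Mdh2, Capza2, Rpl26 and Atp5f1a are low in culture 3.

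Culture 3 had the dimmest array. Its median deposited signal was 7.4, against 11.7 in culture 2 and 18.4 to 20.2 in cultures 1, 5 and 6, and 29.1% of its probe sets exceeded a signal of 16, against 41.0% to 55.6%. Rank correlations across all probe sets, which are not independent replicates, ran from 0.61 (cultures 1 and 3) to 0.76 (cultures 1 and 6), and each of the other cultures had its lowest with culture 3. The ratio of 3′ to 5′ signal, a sign of RNA integrity, was 1.33 for GAPDH in culture 3 and 1.58 to 1.81 in the others. For beta-actin it was 2.18 in culture 3, within the 1.51 to 2.29 of the others. Their part in the spread between cultures was not tested.

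Among the 829 genes, culture 3 lay at least 1 below the median of the other cultures in 73 and at least 1 above in 32. Culture 1 followed with 43 below and 5 above, culture 2 had 20 and 11, and cultures 5 and 6 had 9 below each, with 11 and 5 above. These counts depended on the scaling. Genes with a mean of at least 6 were chosen anew under each scaling, so the next counts are not out of the same 829. With array medians subtracted, culture 3 had 308 below and 0 above and culture 1 had 9 below and 250 above. With no scaling between arrays culture 3 had 622 below and 0 above. The excess of genes low in culture 1 was thus seen only after quantile normalisation among these 3 scalings. Under both other scalings the counts above ran in the order of the arrays' median signals, from culture 1 through 6, 5 and 2 to 3. With array medians subtracted they were 250, 50, 21, 2 and 0, and with no scaling 373, 139, 43, 1 and 0. Neither is thus separate support for the counts after quantile normalisation.

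**Figure D5:**
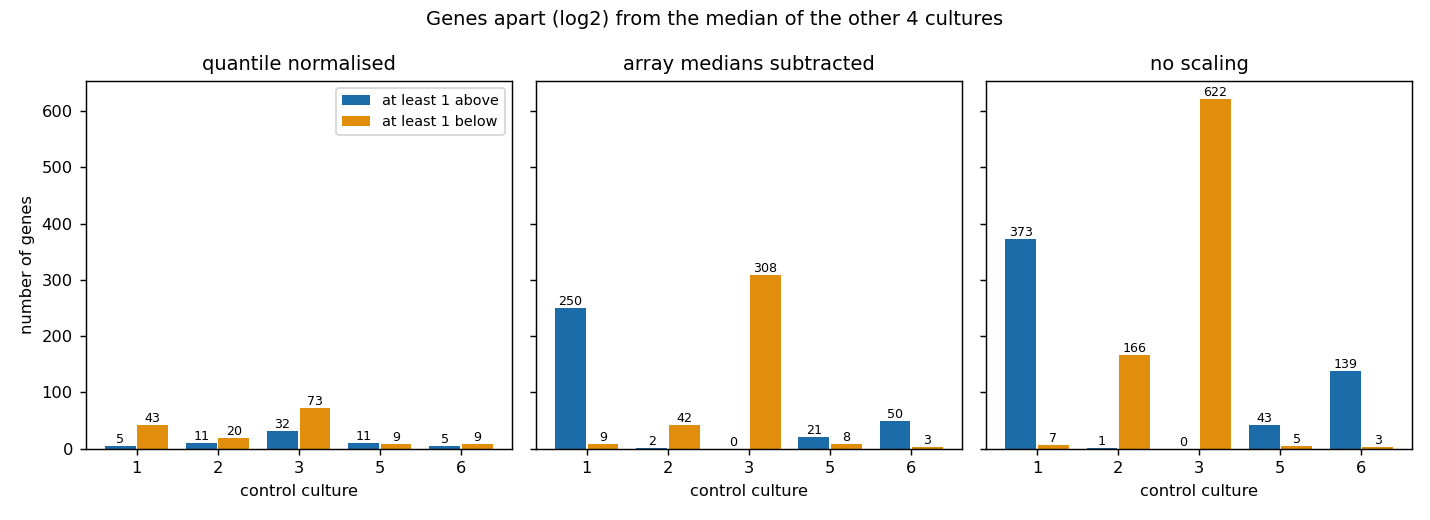
Number of genes per control culture that lie at least 1 (log2) above (blue) or below (orange) the median of the other 4 cultures, under 3 scalings. Genes with a mean of at least 6 were chosen anew under each scaling. Culture 3, the dimmest array, has 73, 308 and 622 genes below, while for culture 1 the larger bar is below after quantile normalisation and above in the other panels.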

How the data were processed

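Labelled total RNA was hybridised to Affymetrix rat genome arrays. The authors deposited 1 linear signal intensity per probe set and array. MAS5 and GCRMA are named, without version or role, per the submitters' processing notes. Which tool made these values was not given in the sources used here. Of 8799 probe sets 59 array controls were left out. From the rest log2(signal + 16) was computed and the 5 control arrays were quantile normalised. Symbols came from the platform annotation: 7006 probe sets had 1 symbol, 308 several and 1426 none, and 6985 matched RefSeq GRCr8 with 0 symbols changed. A gene was its brightest probe set. No test was run, since the control cultures form 1 group. Arrays shared at most 81 identical signals. The number of arrays limits the precision.

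Named were 5 markers, the 20 highest means, the 20 largest SDs (mean at least 6), the 10 smallest SDs (mean at least 9), up to 5 highest and 3 floor members of each list, and members of cell type lists. Where a whole set of floor genes is given, it goes past that rule. Some other members go past it too, such as Ccl4, Ctsh, Ctsk, Cd74, Bdnf and Gdnf. The members, lists and thresholds were chosen with earlier results of these data known. Alternatives were scaling, pseudocount, probe set rule, thresholds and leaving out each culture. Scripts ran in Python 3.11.15 with numpy 2.4.6 and pandas 2.3.3 and were tested on simulated data.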

Additional observations from a re-analysis of the deposited data

Results flagged for a closer look

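In 22 of 180 gene levels looked at (12.2%), 1 culture lay apart from the other 4, with a gap to its neighbour of more than 0.71 of the whole range. Chance flags about 1 in 20 such groups, but the genes here include the 20 of largest SD, which hold 7 of the 22, so the share cannot be read against that. Array measures and list medians gave 0 more. Culture 3 was the one apart in 10, culture 1 in 6, culture 2 in 3, culture 5 in 2 and culture 6 in 1.

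Culture 3 was below in 9 of its 10. It had Rpl26 at 6.985 (9.002 to 9.58 in the others), Mdh2 at 4.355, Capza2 at 4.757, Tor1aip1 at 4.883 and Atp5f1a at 4.952. It also had Aif1 at 6.821, Pgam1 at 7.152, Ccng1 at 7.308 and RT1-DMb at 5.135. Cst3 was the exception, at 9.52 in culture 3 and 8.67 to 8.702 in the others.

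Culture 1 was above in Sod2 (8.901 against 6.204 to 6.516) and in Kdr (7.002 against 4.16 to 4.952). It was below in Alpl (10.27), Rps15 (9.828), Cd63 (10.03) and Hgf (4.974).

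Culture 2 was above in Psap, at 12.44 with the other 4 tied at 12.23 by quantile normalisation, and in Egr1 at 6.731, and below in Rpl27a at 9.61. In culture 5 Ngfr was low at 5.345 and S100b high at 5.388. In culture 6 Snap25 was high at 6.486.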

How the results depend on the processing

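The 20 genes of highest mean were the same 20 under array medians, no scaling and either pseudocount, and 10 of them remained without probe sets of reduced specificity. Bright genes, 176 as reported, numbered 85 with no scaling, 110 without probe sets of reduced specificity, and 485 or 88 with a threshold of 6 or 8. Genes at the floor, 903 as reported, numbered 265 or 1951 with a threshold of 4.5 or 5.5. Genes with a range of at least 2, 38 as reported, numbered 198 with array medians, 421 with no scaling, 73 or 9 with a pseudocount of 1 or 32, 23 without probe sets of reduced specificity, 17 with the median over probe sets, and 88 or 3 with a mean of at least 5 or 7. Leaving out 1 culture gave 17 (without culture 1) to 35 (without culture 2). Bright microglia markers, 5 as reported, were 4 with no scaling, 4 without probe sets of reduced specificity, 8 at a threshold of 6 and 5 to 7 with 1 culture left out, 7 without culture 3. Bright markers of other cell types, 1 as reported, were 0 without probe sets of reduced specificity and 2 at a threshold of 6. The counts of variable genes and of genes apart per culture thus depended on scaling. The genes they were drawn from were chosen anew by mean under each alternative. Levels under another pseudocount lie on another scale. No paired analysis was possible because the controls were set against no other group. Signals under 16 leave little room for a difference to be seen, and culture 3, with the dimmest array, is limited most.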

Other observations

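The 20 brightest probe sets on the control arrays comprised 12 with a single gene symbol, 4 with several symbols and 4 without a gene in the annotation used here. Over all 8740 probe sets used, 7006 had 1 symbol, 308 several and 1426 none. Probe sets with several symbols or none are not part of the gene levels above.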
